A study of Homo sapiens with 18 samples.

Results

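The response of ovarian cancer cells to the BET inhibitor i-BET151 was compared between 4 and 24 h of treatment. The readout was the change of effect, defined for each gene as the i-BET151 minus DMSO difference at 24 h minus the same difference at 4 h, on the log2 scale. It was measured in 12 of the 18 libraries of the series, which held 3 biological replicates each of OVCAR-3 cells given DMSO or 1 µM i-BET151 for 4 or 24 h. All 12 samples were the established high-grade serous ovarian carcinoma line OVCAR-3, so the data describe 1 cell line at 1 dose, and DMSO was the vehicle control at both times. The other 6 libraries, from the inhibitor i-BET858 at the same dose and times, entered the fit to share the estimate of the spread. Of 58825 genes in the count tables, 18154 passed the filter on low counts and were tested. Calls rest on edgeR's quasi-likelihood test and required both a 2-fold change and a p below 0.05 after Benjamini-Hochberg adjustment.

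BET proteins carry paired bromodomains that bind acetylated histone tails. At active promoters and enhancers they help to recruit P-TEFb, the kinase that releases paused RNA polymerase II. i-BET151 occupies the acetyl-lysine pocket of the bromodomains, and genes that depend on BET proteins then lose transcription within hours. Other transcripts rise, among them HEXIM1, whose product holds P-TEFb in an inactive complex and which serves as a marker of BET inhibition. Later differences can also pass through the products of the genes that changed early, through transcript stability and through the state of the cells.

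Library totals of the 12 samples ranged from 27323969 to 39771042 counts, so that 3 counts, the limit that a count of 0 allows, correspond to 0.0732 to 0.109 CPM (counts adjusted for sequencing depth), which covers counting error only. The replicate 3 libraries stood apart, with 17817 to 20642 genes having at least 1 count against 23674 to 24838 in replicates 1 and 2. Results without them are given for the main counts and for some genes and lists. The markers fixed for serous carcinoma were present, with mean levels in DMSO at 4 h of 478 CPM for the lineage factor PAX8, 127 CPM for WT1 and 5611 CPM for the keratin KRT8. Of 16 markers of immune, endothelial, stromal and liver cells, 8 passed the filter, and their summed level was 26.2 to 47.5 CPM in DMSO at 4 h, 30.2 to 54.1 with i-BET151 at 4 h, 32.4 to 42.6 in DMSO at 24 h and 24.5 to 31.6 with i-BET151 at 24 h. Most of that sum was COL1A1 (24.9 to 34.8 CPM as group means), while CD3E, COL3A1 and DCN had no count in some groups and CDH5, PTPRC and CSF1R none with i-BET151 at 24 h. The change of effect was below 0 in all 8 tested markers (median −2.33, or −1.17 with the marker without counts set at the limit of detection) and called in none, and CD14 and CDH5, each at or below 1.4 CPM as group means, were among those lower at 24 h. Among the genes named below, the exons of BRD2, CCNE2, COL1A1, CRB2, CYP1B1, DUBR, HOXA3, LIF, MYC, PBRM1, SCN9A, SETDB1, STAT6 and TXNRD2, and of some others with non-coding neighbours, overlap a gene on the other strand, from which reads cannot be told apart if strand was not used.

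At 4 h, 740 genes (4.08% of those tested) were higher and 546 (3.01%) lower with i-BET151 than with DMSO. At 24 h, 992 (5.46%) were higher and 1517 (8.36%) lower. The effect itself changed between the times in 1217 genes, moving upward in 454 (2.5%) and downward in 763 (4.2%). With the replicate number within each time as a block, 619 moved upward and 1055 downward. In replicates 1 and 2 alone, 1250 genes were higher and 834 lower at 4 h, 1143 higher and 2070 lower at 24 h, and 582 moved upward and 1490 downward. With the adjusted p alone, without the 2-fold limit, 1269 genes (6.99%) moved upward and 1239 (6.82%) downward. By the same measure the balance also turned at each time, with 1586 genes (8.74%) higher and 1865 (10.3%) lower at 4 h, and 2903 (16%) higher and 2869 (15.8%) lower at 24 h. Between 4 and 24 h of DMSO, edgeR called 1 gene (0.00551%), WNT11, a secreted WNT ligand that was 1.23 lower on the log2 scale at 24 h (adjusted p = 0.0229), while 1664 had an unadjusted p under 0.05. Between 4 and 24 h of i-BET151, 1723 genes (9.49%) were called.

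Genes were sorted into 4 response classes. Transient genes were called at 4 h and not at 24 h, late genes at 24 h and not at 4 h, each with a called change of effect. Sustained genes were called at both times in the same direction, and reversing genes had a called change and effects of opposite sign, each with an adjusted p under 0.05. In all, 1571 genes (8.65% of those tested) fell into a class, of which 710 were late, 637 sustained, 138 transient and 86 reversing. A call at only 1 time was seldom enough to show a change. Of 640 genes called at 4 h and not at 24 h, 138 (21.6%) were transient and 9 reversing, and 540 still had the same sign at 24 h. Of 1863 genes called at 24 h and not at 4 h, 710 (38.1%) were late and 5 reversing. Because the classes are cut from these effects, their effect sizes are given below as descriptions.

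**Figure D1:**
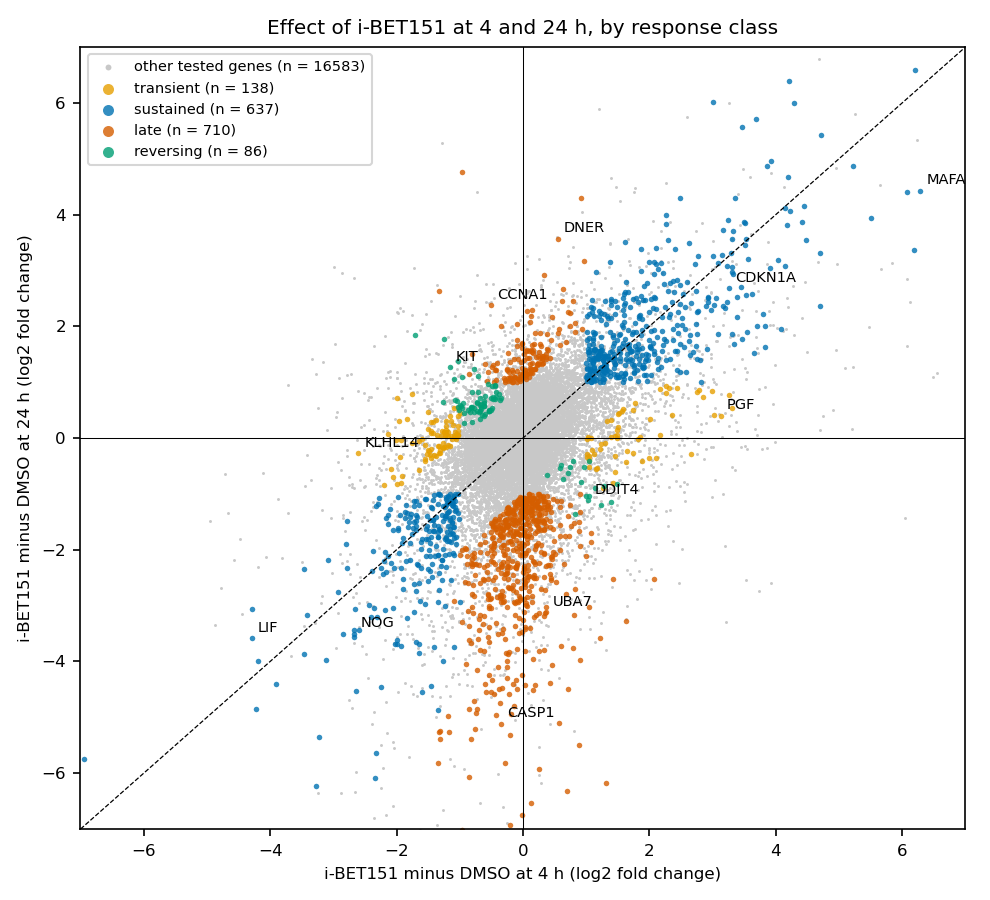
Effect of i-BET151 at 4 h (x axis) against that at 24 h (y axis), in log2 fold change against DMSO, with 1 point per tested gene, colour for the response class and the dashed line for equal effects. The late genes form a column below 0 (570 lower, 140 higher), the sustained genes follow the diagonal, and 17 genes lie outside the axes, which end at 7.

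The transient higher class held 58 genes (0.319% of those tested), with a median effect of 1.54 at 4 h and 0.02 at 24 h. The count was 37 without i-BET151 4 h replicate 1, 93 with the replicate number within each time as a block and 207 in replicates 1 and 2 alone. PGF, placental growth factor, a ligand of the VEGF receptor FLT1, is at chr14:74941834-74955626 (GRCh38, minus strand). Its level in DMSO at 4 h was 2.06, 2.19 and 1.41 CPM, against 22, 15.7 and 12.1 with i-BET151, and at 24 h 2.88, 3.06 and 2.93 CPM against 4.05, 3.71 and 3.96. The groups were separate at both times, but the gap had closed from a log2 difference of 3.13 ± 0.23 (SE) to 0.40 ± 0.22, a change of −2.73 ± 0.32 (adjusted p = 4.76e-05). CCM2L, a regulator of endothelial and cardiac growth signalling at chr20:32010438-32032180, behaved alike. It rose from 2.4, 2.27 and 1.22 CPM to 13.6, 15.9 and 18.7 at 4 h, and at 24 h had 2.18, 3.23 and 3.03 CPM in DMSO against 3.95, 2.89 and 4.42 with i-BET151, where the groups overlapped (change −2.61 ± 0.33, adjusted p = 0.000104).

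HAS3, a hyaluronan synthase, rose 3.26 ± 0.29 at 4 h and stood at 0.77 ± 0.28 at 24 h, although its exons overlap CHTF8 on the other strand and the strand setting of the counting is not given in the sources used here. NRARP, a Notch target that feeds back on the pathway, went from 21, 23.9 and 14.3 CPM in DMSO to 161, 141 and 106 at 4 h, and at 24 h was 49.7, 46.3 and 44.8 with i-BET151 against 29.7, 28.3 and 19.5. The repressor of epithelial genes SNAI1 had effects of 1.46 and −0.33 (change −1.79 ± 0.32, adjusted p = 0.0015). HMOX1, which degrades haem and is induced by oxidative stress, had 2.01 and 0.34 (change −1.67 ± 0.37, adjusted p = 0.00625). Cyclin E2 (CCNE2), which activates CDK2 at the entry into S phase, had 1.22 and −0.19 (change −1.41 ± 0.32, adjusted p = 0.00682), and the stress-induced mTORC1 inhibitor SESN2 had 1.74 and 0.50 (change −1.25 ± 0.24, adjusted p = 0.00221). In replicates 1 and 2 alone the change of CCNE2 was −0.99, just under the limit.

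Of 33 immediate early and AP-1 genes, which answer growth signals within minutes and include FOS, JUN and EGR1, 12 were higher at 4 h and 4 at 24 h, where 4.08% and 5.46% of all tested genes were higher. The change of effect was called in only 1 (3.03%), downward, near the 4.2% of all tested genes that moved downward. This was CCN1, a matricellular protein, which went from 1.07 to −0.00 (change −1.08 ± 0.33, adjusted p = 0.0388). Its call was lost when any of 9 single libraries was left out or the length trend was removed (adjusted p of 0.0501 to 0.104). FOS itself was sustained, with effects of 1.28 and 1.43, as was EGR1 with 1.02 and 1.02. The medians of the list were 0.53 at 4 h and 0.28 at 24 h, where those of all tested genes were 0.01 and 0.01. The smaller number of calls at 24 h was thus mostly made of genes that dropped below the limit without a called change.

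The transient lower class held 80 genes (0.441%), with medians of −1.34 at 4 h and 0.03 at 24 h, and 138 in replicates 1 and 2 alone. The leading member was KLHL14, a Kelch family protein at chr18:32672673-32773023 (minus strand). DMSO libraries had 132, 131 and 113 CPM at 4 h, and i-BET151 libraries 20.8, 21.6 and 19.4. At 24 h the values were 156, 152 and 153 CPM in DMSO and 125, 155 and 103 with i-BET151, so that the loss at 4 h was no longer seen (−2.61 ± 0.16 against −0.27 ± 0.15, change 2.34 ± 0.21, adjusted p = 4.16e-06). DACT2, an inhibitor of WNT and TGF-beta signalling at chr6:168292830-168319777, fell from 15.5, 13.4 and 16.6 CPM to 2.92, 2.87 and 4.58 at 4 h, and the groups overlapped at 24 h, with 13.1, 15.3 and 14.5 against 16.7, 14.5 and 13.7. CYP1B1, which oxidises oestrogens and polycyclic hydrocarbons, had effects of −2.01 ± 0.24 and −0.03 ± 0.24, and its level in DMSO was itself 1.02 lower at 24 h than at 4 h on the log2 scale, which was not called.

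Chromatin and signalling genes were also found here. TGFBR2, the type II TGF-beta receptor, fell from 135, 120 and 103 CPM to 53, 46.7 and 51.4 at 4 h and had 81.9, 86.4 and 69 in DMSO against 82.4, 93.6 and 80.5 at 24 h (change 1.36 ± 0.19, adjusted p = 0.000247). The H3K9 methyltransferases SETDB1 and SUV39H1 fell by 1.55 and 1.55 at 4 h and stood at −0.41 and −0.38 at 24 h, with adjusted p of 0.00989 and 0.032 for the change. The call of SUV39H1 was lost when any of 11 single libraries was left out (adjusted p of 0.051 to 0.072), and in replicates 1 and 2 alone its change was 0.84. HOXA3, a patterning factor, had −1.36 and 0.06 (change 1.42 ± 0.17, adjusted p = 5.58e-05). Of 454 tested ZNF zinc finger genes, mostly DNA-binding repressors, 9 were transient lower, and the effect moved upward in 19 (4.19%) and downward in 3. Over all tested genes the corresponding shares were 2.5% and 4.2%. Their median effect was −0.18 at 4 h and 0.09 at 24 h.

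The sustained class was formed by 409 higher genes (2.25%) and 228 lower genes (1.26%), with medians of 1.79 at 4 h and 1.76 at 24 h for the former and −1.51 and −1.80 for the latter. In replicates 1 and 2 alone they were 540 and 393. HEXIM1, at chr17:45148475-45152099, had 187, 207 and 165 CPM in DMSO and 475, 439 and 420 with i-BET151 at 4 h, and 198, 206 and 165 against 438, 445 and 371 at 24 h. Its effect was 1.25 ± 0.12 and 1.14 ± 0.12, and the change of −0.11 ± 0.17 did not pass the test (adjusted p = 0.725). The CDK inhibitor p21 (CDKN1A) was 3.26 ± 0.24 and 2.68 ± 0.23 higher, with 93.3, 75.4 and 64.7 CPM at 4 h and 52.5, 47.9 and 46 at 24 h under the drug. The serpin SERPINI1 had effects of 3.15 and 3.27, and the zinc knuckle protein ZCCHC24 had 3.06 and 2.51. MAFA, a transcription factor of pancreatic beta cells, had 31.3, 29.4 and 23.5 CPM at 4 h and 8.32, 7.73 and 6.84 at 24 h with the drug, against at most 0.645 CPM in DMSO. GFPT2, an enzyme of the hexosamine pathway, had effects of 5.22 and 4.87.

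Among the sustained lower genes, NOG, the secreted BMP antagonist noggin at chr17:56593699-56595611, had 45.7, 51.8 and 56.4 CPM in DMSO and 6.7, 9.13 and 8.37 with i-BET151 at 4 h, and 61.9, 61.6 and 65.3 against 6.62, 5.6 and 4.45 at 24 h. The groups were far apart at both times, with effects of −2.67 ± 0.18 and −3.50 ± 0.19. The IL6 family cytokine LIF had −4.29 ± 0.60 and −3.58 ± 0.58, and PALMD had −2.84 ± 0.31 and −3.51 ± 0.32. The chemokine receptor CCR1 had 59 and 61 counts over the 3 DMSO libraries at 4 and 24 h and none in the 6 i-BET151 libraries, so it was lower at both times and its change could not be measured. MYC was not called at either time (−0.37 ± 0.20 and −0.49 ± 0.20). BRD2 was 0.76 ± 0.14 and 0.68 ± 0.14 higher, under the 2-fold limit, and TOPBP1, an activator of the ATR checkpoint kinase, had −0.95 ± 0.17 and −0.15 ± 0.17 (change 0.81 ± 0.24, adjusted p = 0.0309), likewise under it.

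Over all 18154 tested genes the change of effect was called in 1217, and in the 637 sustained genes it was called in 40. Among those that went on growing were CRB2, a regulator of epithelial polarity, with −1.35 at 4 h and −4.86 at 24 h (change −3.51 ± 0.59, adjusted p = 0.000892), and the histone genes H3C8 (1.09 and 2.47), H4C8 (1.07 and 2.35) and H2AC11 (1.86 and 2.99), whose call was lost when any of 4 single libraries was left out. Replication-dependent histone genes, which supply the histones of S phase and whose transcripts mostly lack poly-A tails, were the list with the strongest sustained rise. Of 52 tested, 28 were higher at 4 h, 32 at 24 h and 25 at both, none was lower, and the change of effect was called in 3, where over all tested genes 4.08% and 5.46% were higher at the times, 2.25% were sustained higher and 2.5% moved upward. Their summed level was 771, 585 and 486 CPM in DMSO at 4 h and 1595, 1317 and 1077 with i-BET151, and 616, 643 and 678 against 2226, 2202 and 1774 at 24 h. Since the RNA was selected for poly-A, these values measure the polyadenylated part of these transcripts, and a change in transcript amount and a change in polyadenylation cannot be told apart.

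**Figure D2:**
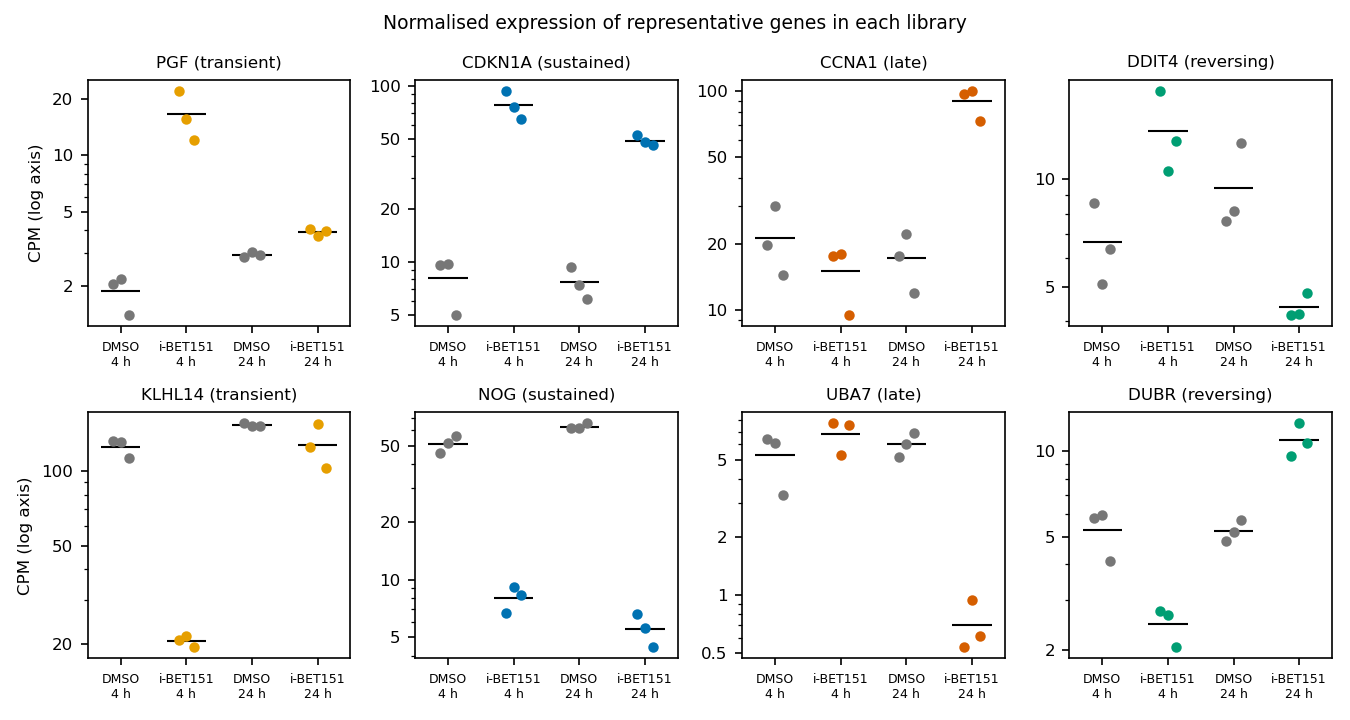
Level of 8 genes in each of the 12 libraries, in normalised CPM on a log axis, with 1 point per library and a line at the mean of the 3 replicates; DMSO is grey and i-BET151 coloured. The transient genes PGF and KLHL14 return towards DMSO by 24 h, CDKN1A and NOG differ at both times, CCNA1 and UBA7 differ at 24 h, and DDIT4 and DUBR cross from 1 side of DMSO to the other.

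The late class was the largest at these limits, though the sustained class was larger by the adjusted p alone, at 1.5-fold, with the length trend removed, and without DMSO 4 h replicate 2, i-BET151 4 h replicate 3, DMSO 24 h replicate 3 or i-BET151 24 h replicate 2. It held 570 lower genes (3.14%) and 140 higher genes (0.771%), and 957 and 158 in replicates 1 and 2 alone. The late lower genes had a median effect of −0.06 at 4 h and −1.97 at 24 h, and in 444 of them (77.9%) the effect at 4 h was under 0.5 in size. By the adjusted p alone, 28 of the 570 were already lower at 4 h. The levels left at 24 h ranged widely, and the members with the largest changes were near the limit of detection. CASP1, the inflammatory caspase that matures IL1B, at chr11:105025397-105035250, had 3.62, 2.86 and 3.2 CPM in DMSO and 3.2, 2.07 and 2.3 with i-BET151 at 4 h. At 24 h it had 2.91, 2.16 and 3.92 against 0.0976, 0.152 and 0, the last 3 from 9 counts in all (effect −5.11 ± 0.60, change −4.76 ± 0.75, adjusted p = 0.000553). HGD, an enzyme of tyrosine breakdown, had 5.84, 5.13 and 5.3 CPM against 7.29, 4.76 and 6.49 at 4 h and 3.7, 4.55 and 6.69 against 0.244, 0.0304 and 0.408 at 24 h. In both genes the groups overlapped at 4 h and were widely separate at 24 h. AQP5-AS1, a non-coding RNA with a late loss of similar size, shares exonic sequence with AQP2 on the other strand and is uncertain for that reason.

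Many genes of the interferon system were in the late lower class. Interferon-stimulated genes are switched on by interferon signalling and encode antiviral proteins, and tumour lines often express some of them without added interferon. Of 47 tested, 30 were lower at 24 h and 3 at 4 h, where 8.36% and 3.01% of all tested genes were lower. The change of effect was called in 20, all downward and all late, which is 42.6% of the list against 4.2% of all tested genes. Among these, GBP1 (−0.70) and PARP9 (−0.78) were already lower at 4 h by the adjusted p alone, under the 2-fold limit. The median effect of the list was −0.16 at 4 h and −1.76 at 24 h, and the latter was −1.75 with OAS2, which had no count in a group, set at the limit of detection. The summed level of the list was 1070, 925 and 962 CPM in DMSO and 1018, 871 and 906 with i-BET151 at 4 h, then 1004, 940 and 1010 against 543, 565 and 585 at 24 h. The groups overlapped at 4 h, although each i-BET151 library was below the DMSO library of the same replicate number. At 24 h they did not overlap. The 8 tested markers of other cell types had medians of 0.20 and −1.30, with 3 lower at 24 h and no called change, and their part in this result was not tested.

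UBA7, the activating enzyme that attaches ISG15 to proteins, at chr3:49805209-49813953, had 6.42, 6.11 and 3.29 CPM in DMSO against 7.71, 5.27 and 7.53 at 4 h, and 5.15, 6 and 6.85 against 0.537, 0.943 and 0.611 at 24 h (change −3.48 ± 0.47, adjusted p = 0.000168). BST2 (tetherin), which holds budding virions at the membrane, had a change of −3.36 ± 0.62 (adjusted p = 0.00172). TRIM22 and IFI44L, an antiviral ubiquitin ligase and an interferon-induced protein, had −3.84 ± 0.81 and −3.61 ± 0.75 (adjusted p = 0.0046 and 0.00414). ISG15 itself had effects of 0.23 and −1.01, and MX1, an antiviral GTPase, −0.62 and −2.31. Among the upstream factors, IRF1 had 0.02 and −0.90, below the limit on size (change −0.92, adjusted p = 0.0165), STAT2 had 0.43 and 0.54, and IRF7 was sustained higher with 1.88 and 1.61. IFIT2 and IFIT3 were lower at both times, with −1.99 and −3.68 and with −1.89 and −2.53.

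Of 19 tested genes of MHC class I presentation, the effect changed in 5, all downward (26.3%, against 4.2% of all tested genes), and 3 of them were late lower. The immunoproteasome subunits PSMB8 and PSMB10, which replace constitutive subunits when peptides are cut for presentation, were late lower. PSMB10 had 11.1, 10.3 and 13.1 CPM against 9.34, 7.82 and 15.3 at 4 h and 8.97, 8.99 and 15 against 1.59, 1.37 and 1.4 at 24 h (change −2.83 ± 0.44, adjusted p = 0.000528). PSMB8 had effects of 0.07 and −2.55 and shares exonic sequence with PSMB9 on the other strand. NLRC5, the transactivator of the class I genes, had 0.89 and −1.66 (change −2.55 ± 0.62, adjusted p = 0.011). The class I heavy chain HLA-B and the light chain had no called change, with effects at 4 and 24 h of 0.45 and 0.63 for HLA-B and 0.50 and 0.72 for the light chain B2M.

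The interferon-stimulated response element, searched as GAAANNGAAA on both strands, lay in the RefSeq promoter window (250 bases before to 50 after the start site, GRCh38.p14) of 334 of the 12372 tested genes with a promoter in the table (2.7%). It was in 23 of 35 interferon-stimulated genes (65.7%), where it is known to occur, and in 12 of the 17 with the late loss (70.6%). Among the late lower genes outside the interferon and MHC lists it was in 11 of 380 (2.89%), close to the share of all promoters. Matches are descriptions of letters and not evidence of binding. The stretches below show the match in capitals, TTTCNNTTTC being its reverse complement, for late lower genes at BST2 (chr19:17405721-17405790, minus strand), GBP1 (chr1:89065296-89065365, minus strand), IFI44 (chr1:78649741-78649810, plus strand) and PSMB10 (chr16:67936832-67936901, minus strand), each 5′ to 3′ along the gene. In BST2 a further match overlaps the end of the one in capitals and runs on in small letters.
BST2: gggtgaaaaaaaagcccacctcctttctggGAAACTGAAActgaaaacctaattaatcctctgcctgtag
GBP1: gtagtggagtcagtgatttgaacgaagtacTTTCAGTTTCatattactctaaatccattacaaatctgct
IFI44: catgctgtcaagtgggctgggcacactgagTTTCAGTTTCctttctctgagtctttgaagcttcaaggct
PSMB10: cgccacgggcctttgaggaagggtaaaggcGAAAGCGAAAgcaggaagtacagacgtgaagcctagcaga

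**Figure D3:**
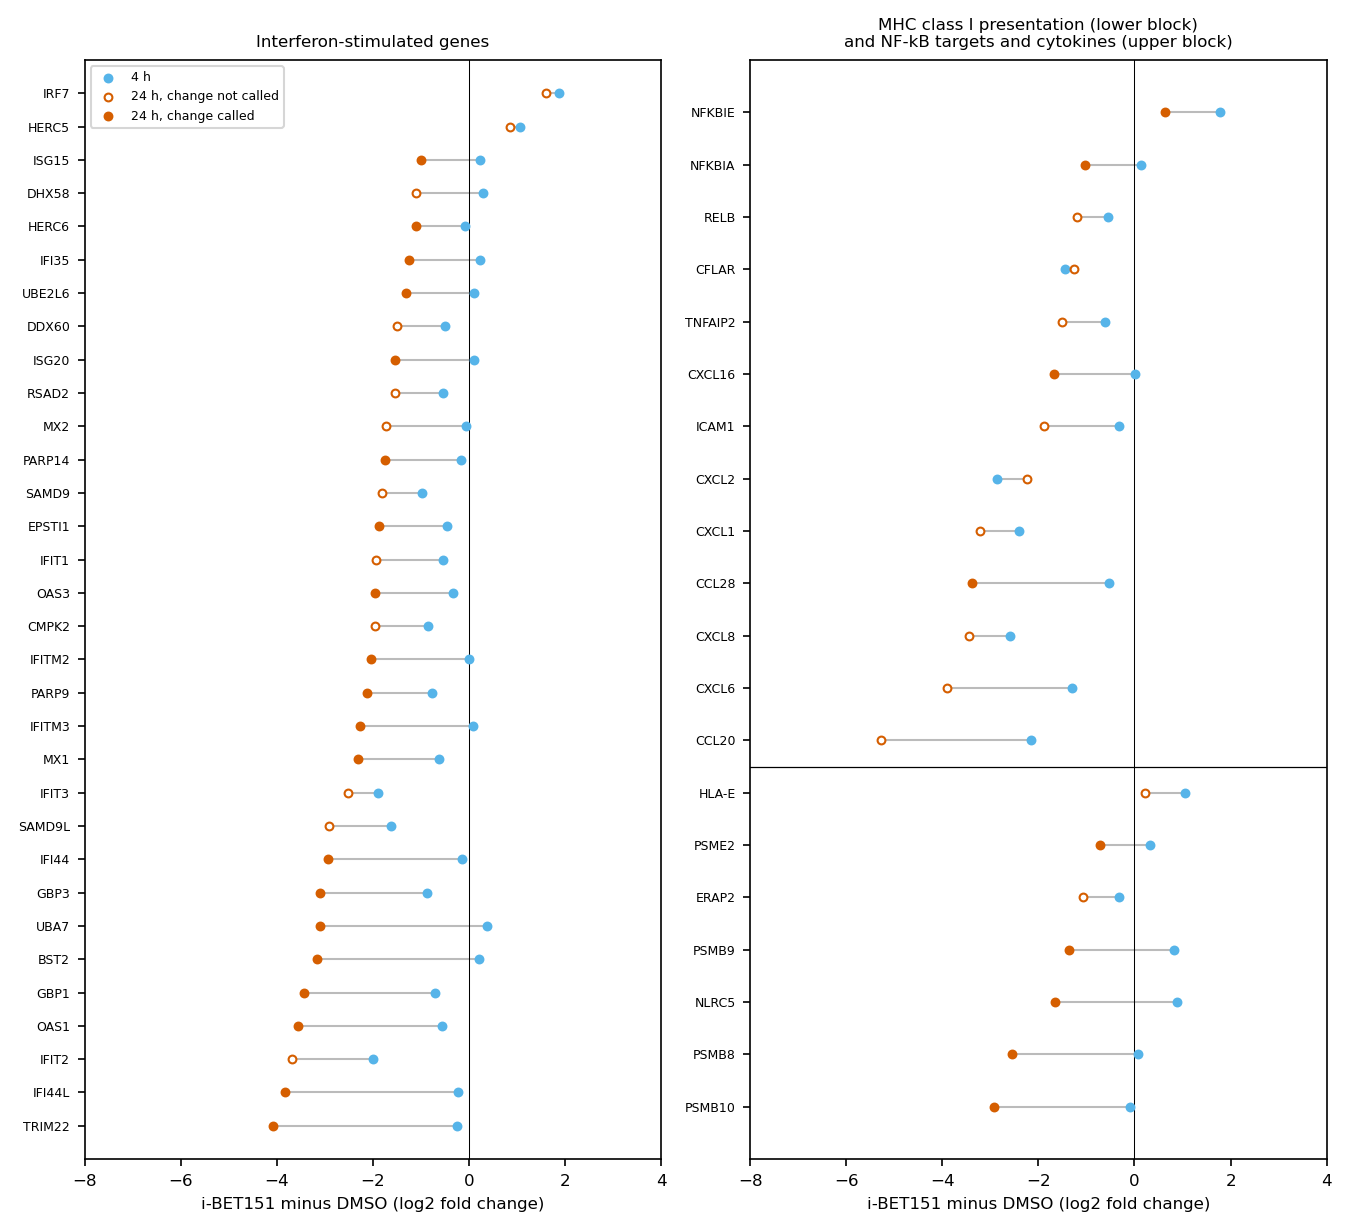
Effect of i-BET151 against DMSO in log2 fold change at 4 h (blue) and 24 h (orange, filled where the change of effect was called), for the genes of 3 lists that were called at a time or in the change. CCR1, which had no count in the treated groups, was left out. Most of the interferon-stimulated genes drawn lie below −1 at 24 h and closer to 0 at 4 h, while several NF-kB genes are already low at 4 h.

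NF-kB targets and cytokines were lower at 24 h in 12 of 31 tested genes and at 4 h in 5, where 8.36% and 3.01% of all tested genes were lower, and the change was called downward in 4 (12.9%, against 4.2%). CXCL8 and CXCL1, chemokines that attract neutrophils, were sustained lower, with −2.60 and −3.44 and with −2.41 and −3.21. CCL28, a mucosal chemokine, was late, with 59.3, 47.4 and 67.1 CPM against 39, 28.3 and 52.1 at 4 h and 69.9, 73.1 and 90.6 against 5.88, 6.66 and 9.9 at 24 h (change −2.84 ± 0.34, adjusted p = 5.82e-05). NFKBIA, the inhibitor that NF-kB induces against itself, had 0.14 and −1.02. The signal transducer of IL4 and IL13, STAT6, had 0.05 and −2.05 (change −2.10 ± 0.35, adjusted p = 0.000839).

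Transporters and matrix genes were also counted. Of 260 solute carriers, the effect moved downward in 18 (6.92%, against 4.2% of all tested genes) and upward in 5 (1.92%, against 2.5%), and 17 were late lower, led by the anion exchanger SLC26A7 (0.11 and −3.40, change −3.52 ± 0.46). Of 51 collagens, laminins and integrins, 5 were late lower (3.14% of all tested genes were), among them the fibrillar collagen COL27A1 (0.82 and −2.71) and the TGF-beta activating integrin ITGB6 (−0.48 and −2.54). SERPINH1, the chaperone of collagen, fell from 874, 878 and 894 CPM to 334, 332 and 311 at 24 h and had 828, 934 and 793 against 802, 845 and 817 at 4 h (change −1.38 ± 0.13, adjusted p = 4.16e-06). The lysosomal protease CTSS had −0.01 and −4.24. Of 20 serous ovarian markers, the effect moved downward in 4 (20%, against 4.2% of all tested genes) and upward in none. Of the 20, 3 were late and lower at 24 h, where 8.36% of all tested genes were lower. MUC1 fell most, with 26.2, 26.1 and 36.7 CPM against 3.17, 4.93 and 4.54 at 24 h, while PAX8, WT1 and SOX17 were not called.

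The late higher genes had medians of 0.06 at 4 h and 1.37 at 24 h, and their count was 92 without i-BET151 24 h replicate 2. DNER, a Notch-binding protein of neurons at chr2:229357629-229714555, had 1.04, 1.08 and 1.25 CPM against 1.22, 2.11 and 1.63 at 4 h and 0.667, 0.505 and 0.414 against 6.83, 6.91 and 5.3 at 24 h (change 3.02 ± 0.40, adjusted p = 0.000124). The meiotic cyclin CCNA1 had 19.9, 29.9 and 14.4 CPM against 17.7, 18 and 9.5 at 4 h and 17.7, 22.3 and 11.9 against 96.7, 100 and 72.7 at 24 h (change 2.89 ± 0.40, adjusted p = 0.000201). The voltage-gated sodium channel SCN9A had 0.33 and 2.92, and ARMH4 had 0.97 and 3.17. Of 37 kinesins 2 were late higher, and of 40 bromodomain genes 2 were late higher and 2 late lower, where 0.771% of all tested genes were late higher and 3.14% late lower. The neuronal kinesin KIF5C had 0.45 and 1.76 (change 1.31 ± 0.23, adjusted p = 0.0011), PBRM1, the bromodomain subunit of the PBAF remodeller, had −0.14 and 1.10 (change 1.23 ± 0.22, adjusted p = 0.00129), and RRM2B, the p53-induced subunit of ribonucleotide reductase, had 0.26 and 1.54 (change 1.28 ± 0.24, adjusted p = 0.0019).

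The thioredoxin reductases parted. Cytosolic TXNRD1, an NRF2 target, had 619, 505 and 491 CPM against 493, 464 and 475 at 4 h and 447, 493 and 515 against 1082, 1302 and 971 at 24 h, and was late higher (change 1.38 ± 0.16, adjusted p = 5.23e-05). Mitochondrial TXNRD2 had 54.5, 51.4 and 58.6 against 19.3, 16 and 21.8 at 24 h and was late lower (change −1.58 ± 0.17, adjusted p = 2.71e-05).

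Reversing genes were few. There were 19 (0.105%) that were higher at 4 h and lower at 24 h, and 67 (0.369%) that were lower at 4 h and higher at 24 h. The former included genes of the integrated stress response, in which ATF4 raises amino acid metabolism and feedback inhibitors under stress. DDIT4, an inhibitor of mTORC1 at chr10:72273919-72276036, had 8.57, 5.1 and 6.36 CPM against 17.6, 10.5 and 12.8 at 4 h and 7.64, 8.12 and 12.6 against 4.17, 4.2 and 4.8 at 24 h, so that the groups were separate in opposite directions (1.03 ± 0.24 and −1.11 ± 0.25, change −2.14 ± 0.35, adjusted p = 0.000667). CHAC1, which breaks down glutathione, had 0.92 and −0.79 (change −1.71 ± 0.35, adjusted p = 0.00362), and HERPUD1, a component of endoplasmic reticulum-associated degradation, had 0.97 and −0.51 (change −1.48 ± 0.22, adjusted p = 0.000404). Of 46 tested genes of the unfolded protein and ATF4 response, 3 were reversing (0.105% of all tested genes reversed from higher to lower) and 7 (15.2%, against 4.2%) moved downward, none upward, and the medians were 0.26 and −0.29. The response was not uniform, since TRIB3 was lower at both times (−1.15 and −1.43) and ERN1, the stress sensor IRE1, higher at both (1.58 and 1.71).

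The ATF4 element, searched as TGATGNAA on both strands, was in 216 of 12372 promoters (1.75%) and in 4 of 42 of this list. Among the transient lower genes, which moved the other way, it was in 5 of 63 (7.94%). It was also in 2 of the 16 reversing genes that were higher at 4 h and have a promoter in the table. Those were CHAC1 (chr15:40953232-40953299, plus strand) and HERPUD1 (chr16:56931936-56932003, plus strand), shown because they are the reversing members that carry the element, with the match in capitals as its reverse complement TTNCATCA.
CHAC1: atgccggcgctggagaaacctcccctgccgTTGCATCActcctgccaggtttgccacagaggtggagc
HERPUD1: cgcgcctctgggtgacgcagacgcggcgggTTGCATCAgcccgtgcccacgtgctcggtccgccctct

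The other reversing genes that were higher at 4 h included the homeobox factor SIX2, with 1.72, 2.94 and 2.41 CPM against 6.6, 6.15 and 7.14 at 4 h and 2.88, 3.3 and 4.49 against 2.25, 1.98 and 1.78 at 24 h (change −2.32 ± 0.41, adjusted p = 0.00123), and the adhesion molecule ICAM5 (1.23 and −1.19). The immunoproteasome subunit PSMB9 had 0.83 and −1.36, but its level in DMSO was 0.98 higher at 24 h than at 4 h on the log2 scale (not called) and it overlaps PSMB8. Among genes that were lower at 4 h and higher at 24 h, the receptor tyrosine kinase KIT, at chr4:54657267-54740783, had 2.24, 2.4 and 4.7 CPM against 1.25, 1.45 and 1.46 at 4 h and 1.33, 1.75 and 1.91 against 3.34, 4.35 and 4.34 at 24 h (change 2.43 ± 0.52, adjusted p = 0.00494). The non-coding RNA DUBR had 5.8, 5.95 and 4.11 CPM against 2.74, 2.65 and 2.05 at 4 h and 4.85, 5.19 and 5.73 against 9.64, 12.5 and 10.7 at 24 h (change 2.15 ± 0.33, adjusted p = 0.000421). LIG4, the ligase of non-homologous end joining, had −0.97 and 0.53, the mitotic kinesin KIF14 −0.84 and 0.46, and CDK12, which phosphorylates the polymerase tail, −0.54 and 0.49. The change of CDK12 (1.04) lay at the limit on size and fell below it under 9 settings, among them DESeq2 (1.00). The count of 19 fell to between 7 and 12 without i-BET151 24 h replicate 1 or 2, i-BET151 4 h replicate 1, DMSO 24 h replicate 1 or 2 or DMSO 4 h replicate 2, the count of 67 fell to 43 without i-BET151 4 h replicate 2, and with the replicate number within each time as a block the counts were 66 and 159.

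**Figure D4:**
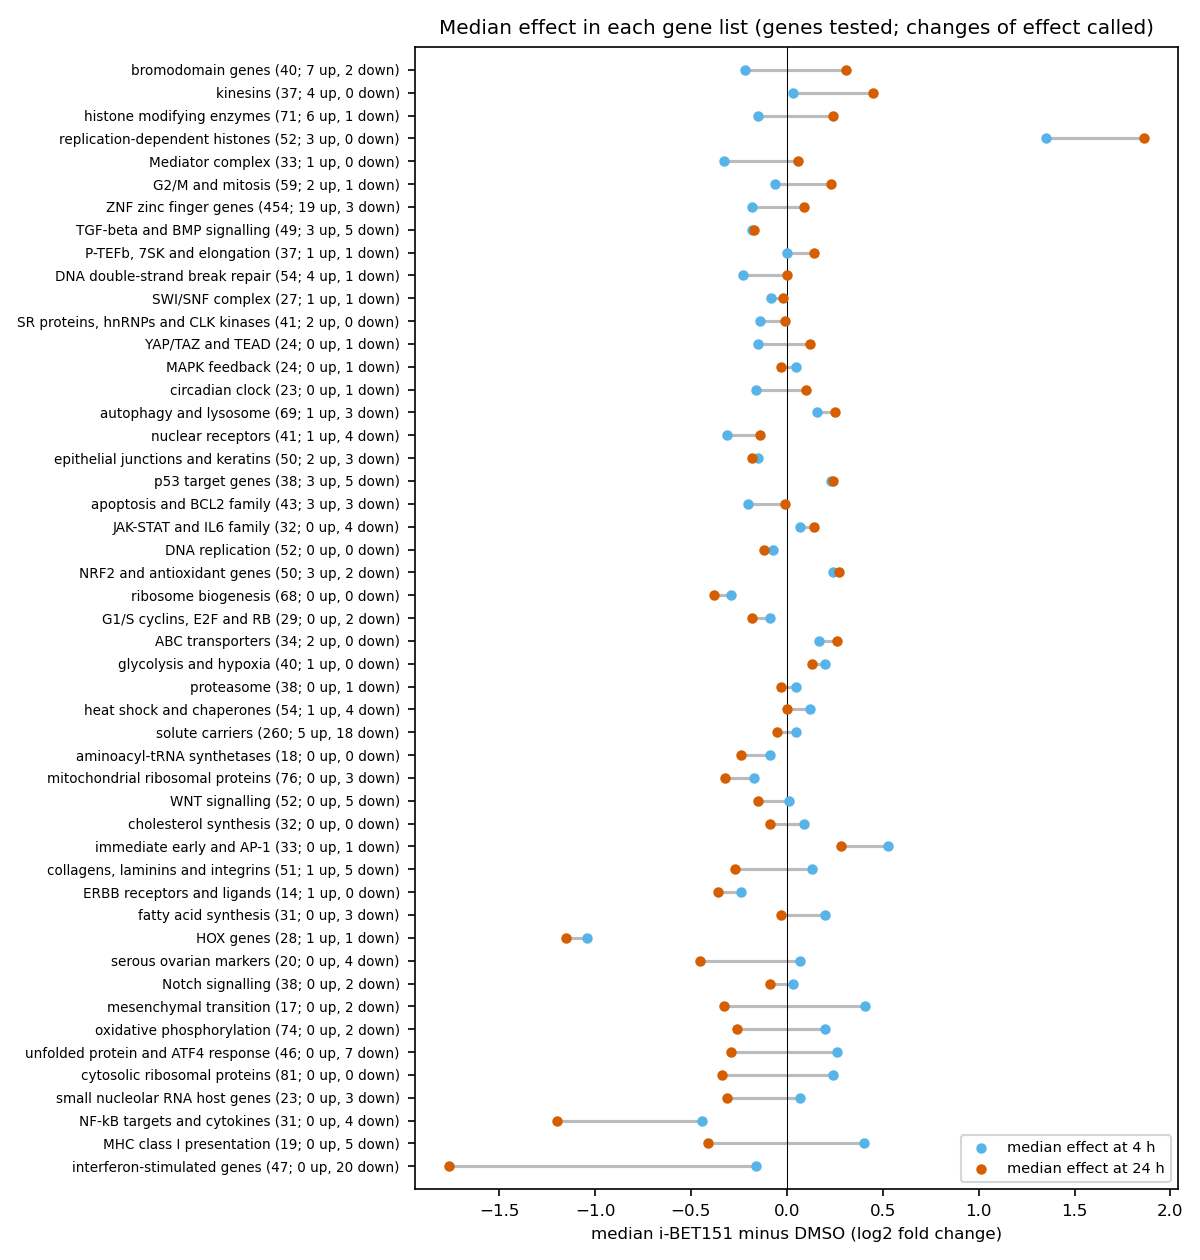
Median effect of i-BET151 at 4 h (blue) and 24 h (orange) in each list of genes, in log2 fold change, for the lists with at least 14 tested genes, with the number tested and the number whose effect changed upward and downward. The interferon-stimulated genes move furthest down, from −0.16 to −1.76, while the histone genes stay above 1 at both times.

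Several large lists shifted by less than the 2-fold limit. The 81 cytosolic ribosomal protein genes had medians of 0.24 at 4 h and −0.34 at 24 h, none had a called change, and 24 (29.6%) moved downward with the adjusted p alone, against 6.82% of all tested genes. In 74 genes of oxidative phosphorylation the medians were 0.20 and −0.26, with 19 (25.7%) downward by the adjusted p alone. Upward shifts were seen in 40 bromodomain genes (medians −0.22 and 0.31, 7 changes upward and 2 downward) and in 71 histone modifying enzymes (−0.15 and 0.24, 6 upward and 1 downward), where 2.5% of all tested genes moved upward and 4.2% downward. Genes of DNA replication (52), ribosome biogenesis (68), cholesterol synthesis (32) and aminoacyl-tRNA synthetases (18) had no called change either, and by the adjusted p alone at most 2 in each list moved in a direction. Of 59 genes of G2/M and mitosis, 2 (3.39%) had a called change upward and 1 (1.69%) downward. By the adjusted p alone, 9 moved upward and 1 downward, where 6.99% and 6.82% of all tested genes did. The median change of the list was 0.31, and 0.20 without i-BET151 4 h replicate 3.

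The protein-coding genes were ordered by exonic length and cut into 10 groups of equal size, and the median change of effect went from −0.36 in the shortest group (207 to 2163 bases) to 0.30 in the longest (12018 to 118976 bases). The share of genes with an upward change went from 0.702% to 7.53% and that with a downward change from 7.58% to 3.31%. The gradient was at 4 h 0.16 to −0.09 and at 24 h −0.25 to 0.20, and DMSO at 24 h against 4 h had 0.13 to −0.14. In single libraries, the median of the shortest group of genes minus that of the longest was −0.05, −0.11 and −0.19 in DMSO and 0.13, 0.20 and −0.08 with i-BET151 at 4 h, and −0.03, 0.05 and 0.33 against −0.13, −0.29 and −0.31 at 24 h. The groups overlapped at 4 h, although each i-BET151 library was above the DMSO library of the same replicate number. They were separate at 24 h, where DMSO replicate 3 was furthest from the rest. Median exonic lengths followed, with 9313 bases for genes that reversed from lower to higher, 8453 for late higher and 6850 for transient lower, against 3552 for transient higher, 3569 for those that reversed from higher to lower, 4710 for late lower and 5330 for all tested protein-coding genes.

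With the length trend of each library taken out, an alternative chosen after the data were seen, 318 genes moved upward and 708 downward, the late lower class held 543 and the interferon-stimulated genes had 22 downward changes. The bromodomain genes then had 1 upward change in place of 7, and the medians of ribosomal protein and oxidative phosphorylation genes were −0.45 and −0.34 in place of −0.56 and −0.43. The median change of the histone modifying enzymes was 0.25 in place of 0.40, and that of the bromodomain genes was 0.29 in place of 0.48. Without DMSO 24 h replicate 3, which had 90387 CPM in ribosomal protein genes against 60080 and 62246 in replicates 1 and 2, the median change of that list was −0.33, that of oxidative phosphorylation was −0.29 and that of the bromodomain genes was 0.30 in place of 0.48. In replicates 1 and 2 alone, the median change of the bromodomain genes was 0.25. The part of length in these results was not tested beyond this.

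**Figure D5:**
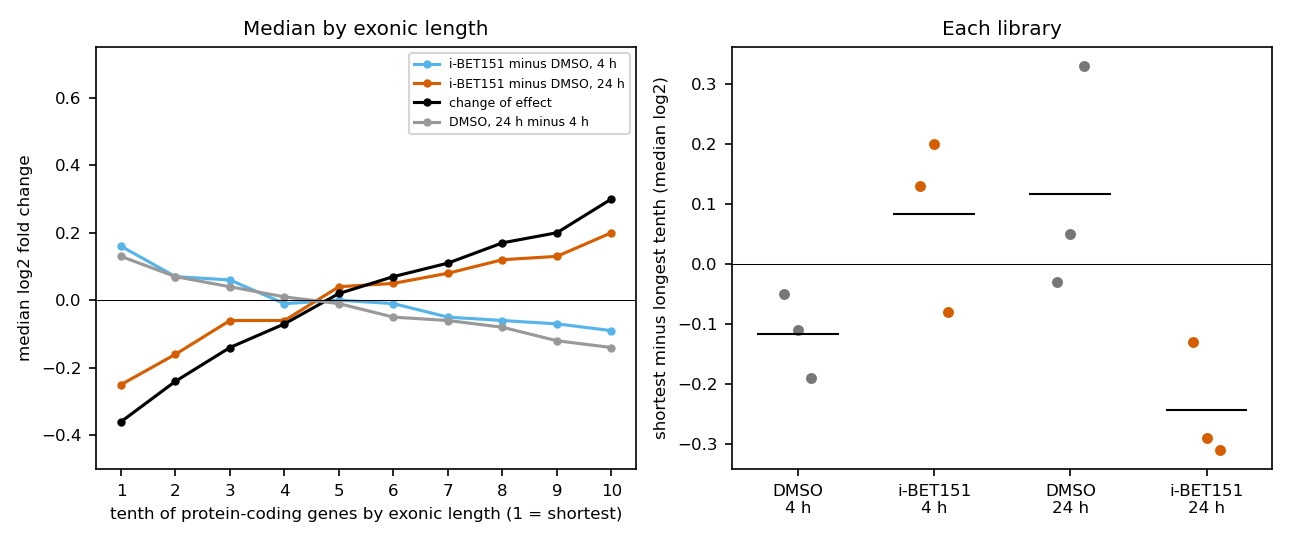
Left, median log2 fold change (y axis) of protein-coding genes in 10 groups by exonic length (x axis) for the effect at each time, the change of effect and the DMSO libraries over time; right, the median of the shortest minus that of the longest group in each library, in log2 units around the mean of all libraries, with a line at the mean of 3 replicates. The change of effect climbs from −0.36 to 0.30 with length, and the i-BET151 libraries at 24 h lie between −0.13 and −0.31.

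The classes were also read in replicate 3 alone, after being cut from replicates 1 and 2, over 17853 genes. This reading held 954 late lower genes, against 957 in the count for replicates 1 and 2 given above. Of the 954 late lower genes, the effect moved downward in replicate 3 in 849 (89%), and of 158 late higher genes it moved upward in 141 (89.2%). For transient lower genes the share was 91.3% and for transient higher genes 69.8%, the lowest of the classes and close to that of all tested genes. Reversing genes kept the direction in 78 of 94 (83%) when they were initially higher and in 112 of 115 (97.4%) when initially lower. The direction of the change was the same in 70.6% of all tested genes. The median change in replicate 3 was −1.24 for late lower and −0.45 for transient higher genes, and sizes below those in replicates 1 and 2 follow in part from choosing the genes there.

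The i-BET858 libraries gave a comparison in which DMSO cancels, namely the difference of the change between the drugs. It was called in 10 genes (0.0551% of those tested), with 1660 at an unadjusted p under 0.05, in 54 by DESeq2 and in 112 with the replicate number within each time as a block. The drugs share the DMSO libraries, so their own values are only set side by side. For late lower genes the medians were −0.06 and −1.97 with i-BET151 and 0.06 and −2.01 with i-BET858, and for transient higher genes they were 1.54 and 0.02 against 2.09 and 0.26. In 8 of the 10 called genes i-BET858 moved further upward, and in each the effects of the drugs were further apart at 4 h than at 24 h. JRK, a CENP-B-like DNA-binding protein, had −0.98 and 0.14 with i-BET151 and −2.84 and −0.03 with i-BET858 (difference −1.69 ± 0.28, adjusted p = 0.0247). The others were GMEB1 and GMEB2, glucocorticoid modulatory element binding proteins, CCDC71, the splicing factor BUD13, TMEM115, the APC/C activator FZR1 and the mitochondrial ubiquitin ligase MUL1. The late lower genes SFXN4, a mitochondrial sideroflexin, and TPD52L1 moved further down with i-BET858 (differences 1.10 ± 0.20 and 1.18 ± 0.22). For the remaining genes no difference was called, which does not show that the drugs act alike.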

How the data were processed

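The deposited values are raw counts per gene of 18 poly-A libraries of OVCAR-3 cells. The authors used STAR for alignment (GRCh38) and for counting per gene, after a quality check of the reads by FastQC, and the deposited counts carry no normalization. The column names repeat between the tables of the time points, so the time of a column rests on which table it is in. The gene annotation and the strand setting are not given in the sources used here. GENCODE 44 gave symbols, positions and exonic lengths for 58472 of 58825 genes. All 18 libraries entered a single quasi-likelihood fit of 6 group means (R 4.3.3, edgeR 4.0.16, TMM scaling, filterByExpr), which left 12 residual degrees of freedom. CPM are normalised by TMM, and marker levels by library totals. Calls required 2-fold changes and adjusted p below 0.05. Errors of log2 values are SE from the quasi-likelihood F. Named genes were, per class and direction, the 4 with the largest change of effect (for sustained genes the largest smaller effect) provided that their mean log2 CPM reached 1 and that 9 of 9 pairs of libraries went the same way at each time called, up to 4 genes per list with that mean, and HEXIM1, SERPINI1, ZCCHC24, CCR1, MYC, LIF, TOPBP1, BRD2 and CDKN1A. Other members of the lists, and genes called between the drugs, were named after their values were seen. The members and lists were chosen with earlier results of these data known. No set test was run.

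Replicate numbers were checked for pairing. Within a time point, the deviations of libraries of the same number had correlations of 0.125 to 0.322, and those of other numbers −0.309 to 0.226. Across time points these were 0.00603 to 0.304 and −0.333 to 0.288. The ranges overlap, so a pairing was not settled. The main fit held no replicate block, so its SE and adjusted p make no use of a pairing. Counts with a block are given as alternatives. On simulated counts of 17776 genes, the test of the change recovered 38 of 100 genes changed by 1 and 80 of 100 changed by 2 on the log2 scale. There were 8 false calls. These were counted by the adjusted p alone, recovered genes also by direction, without the 2-fold limit used for calls. The simulated libraries were independent and held no replicate or length structure, so the numbers do not carry over to the calls given here. Alternatives were DESeq2 1.42.0, its size factors, total library size, no filter, at least 10 counts in every library, the 12 libraries only, replicate blocks, the adjusted p alone, 1.5-fold, replicates 1 and 2, each library left out and, added later, a length offset (lowess, span 0.3). Promoters were taken from RefSeq (GRCh38.p14). Some genes that the naming rule takes are not reported here.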

Additional observations from a re-analysis of the deposited data

Results flagged for a closer look

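The effect of i-BET151 differed between 4 and 24 h in 1217 genes by the interaction test. The change itself differed between i-BET151 and i-BET858 in 10 genes. Of the named reversing genes, whose effects had opposite signs at the 2 times, the change of effect was −2.42 in ICAM5, −2.32 in SIX2, −2.19 in PSMB9 and −2.14 in DDIT4, and 2.43 in KIT, 2.40 in LINC02575, 2.15 in DUBR and 2.06 in DGCR11. Single outlying samples were not tested for.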

How the results depend on the processing

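The balance of higher and lower calls turned with the limit on size, by the adjusted p alone at both times and in the change and at 1.5-fold at 4 h (counts below). Among the named genes no called change reversed (4993 values on the same side of the threshold, 288 lost, 217 gained). Calls were lost under 12 settings for SUV39H1, 10 for CCN1, 9 for CDK12, 8 for ISL1-DT and 4 for H2AC11, and under 1 each for CCNE2, SETDB1 and KIF5C. With DESeq2 the transient higher class held 89 genes, the reversing genes that were first higher 35, and the drugs differed in 54. Without a filter the drugs differed in 36, and with at least 10 counts in every library 38 genes reversed from higher to lower. With a replicate block over all times, 96 were transient higher, 48 and 141 reversing (first higher, first lower) and 79 differed between the drugs. With the replicate block within each time these were 93, 66, 159 and 112. By the adjusted p alone, 1269 and 1239 genes changed (upward, downward), 1586 and 1865 were higher and lower at 4 h and 2903 and 2869 at 24 h. The classes then held 127 and 406 transient, 1064 and 729 sustained, 595 and 922 late and 35 and 101 reversing genes, with 26 between the drugs. At 1.5-fold, 1112 and 1155 genes changed, 1190 and 1309 were called at 4 h and 2060 and 2295 at 24 h, with 106 and 297 transient, 761 and 512 sustained, 426 late higher, 34 first higher reversing and 26 between the drugs. In replicates 1 and 2 alone, 1490 changed downward, 1250 and 834 were called at 4 h, and there were 207 and 138 transient, 393 sustained lower, 957 late lower and 94 and 115 reversing genes and 30 between the drugs. The length offset left 6 between the drugs. Leaving out each library gave 37 to 66 transient higher, 7 to 23 and 43 to 73 reversing and 92 to 153 late higher genes. The lowest reversing counts (first higher) were 11 without DMSO 4 h replicate 2, 9 without i-BET151 4 h replicate 1, 12 and 8 without DMSO 24 h replicates 1 and 2, and 10 and 7 without i-BET151 24 h replicates 1 and 2. The cause of these differences was not tested. The counts come from 1 cell line with 3 replicates a group, and effects near the 2-fold limit are poorly resolved.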
